A study of Mus musculus with 16 samples.

Results

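Wnt ligands and the enzyme that readies them for secretion were followed in mouse embryonic stem (ES) cell cultures driven toward definitive endoderm (DE), the embryonic layer that gives rise to gut. The genes are 8 in number, the ligands Wnt3, Wnt3a, Wnt5a, Wnt5b, Wnt6, Wnt8a and Wnt11 and the acyltransferase Porcn, chosen by name from the pathway, and all 15 array probes that the platform annotation assigns to these symbols were examined, out of 45281 probes and 19057 gene symbols. The cultures came from ES cell lines lacking Lhx1, a LIM homeodomain transcription factor, differentiated for 5 or 6 days, and from wild-type lines (Lhx1+/+) at the same days, with 4 cultures in each of the 4 groups. The null allele is a Cre-mediated deletion of floxed Lhx1 exons, the lines were derived from intercrosses of heterozygous mice on a mixed 129SvEv and C57BL/6 background, and Activin A with EGF was given to the embryoid bodies of every group, so no untreated culture is part of the comparison. RNA was read on 16 Illumina Mouse WG-6 v2 BeadChips, and values are log2 intensities after background correction and quantile normalization.

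Wnt proteins are lipid-modified in the endoplasmic reticulum by Porcn and carried to the cell surface by Wls. Canonical ligands such as Wnt3, Wnt3a and Wnt8a stabilize beta-catenin, which acts with Tcf/Lef factors on target genes, whereas Wnt5a, Wnt5b and Wnt11 are best known for signaling without beta-catenin, through receptors such as Ror2 and Ryk. In the gastrulating mouse embryo, Wnt3 is needed to form the primitive streak, Wnt3a maintains the mesoderm that leaves it, and Wnt5a drives outgrowth of the posterior body. Wnt6 is placed with the canonical ligands here, although it has also been assigned to other branches.

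All 8 definitive endoderm markers listed were measured, and their mean log2 intensity per array was 8.05 to 10.63 in null and 11.44 to 12.24 in wild-type cultures at day 5, and 8.57 to 11.16 in null and 11.79 to 12.38 in wild-type cultures at day 6. Lhx1 itself was 8.15 to 14.49 in null cultures and 14.34 to 14.88 in wild-type cultures, but whether its probe lies in the deleted exons is not given, so it does not check the labels. Null day 5 replicate 4 and null day 6 replicate 2 stood apart as the arrays lowest in Lhx1 (8.15 and 9.76) and in endoderm markers (8.05 and 8.57). The number of probes above background (detection p under 0.01) was 10734 to 15453 over the arrays, and in each group replicate 3 had the fewest. None of the 7 neural and surface ectoderm markers passed the filter. Eif2s3y, a Y-linked gene, was above background in all 8 wild-type cultures but in only 3 of the 8 null cultures, so a Y-linked signal was unevenly spread over genotype.

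Wnt3 and Wnt3a both lie on chromosome 11 of the mouse genome, at chr11:103774175-103818021 and chr11:59248036-59290751 (RefSeq, GRCm38.p6). They had the highest Pearson correlation of any pair of the ligands over the 16 arrays (r = 0.86). The 250 bases before their annotated starts are shown for that reason, 5′ to 3′, with each CG dinucleotide in capitals. With each group's mean taken out, Wnt3 and Wnt8a correlated more closely (0.89, beside 0.84), and Wnt3a was above background on 7 arrays only. The Wnt3 window is chr11:103773925-103774174 on the plus strand and the Wnt3a window is chr11:59290752-59291001 on the minus strand.
Wnt3: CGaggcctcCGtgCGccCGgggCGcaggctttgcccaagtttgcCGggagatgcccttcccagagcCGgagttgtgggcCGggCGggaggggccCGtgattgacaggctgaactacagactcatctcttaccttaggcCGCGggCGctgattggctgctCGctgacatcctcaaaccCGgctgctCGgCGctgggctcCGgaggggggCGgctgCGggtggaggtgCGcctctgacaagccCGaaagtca
Wnt3a: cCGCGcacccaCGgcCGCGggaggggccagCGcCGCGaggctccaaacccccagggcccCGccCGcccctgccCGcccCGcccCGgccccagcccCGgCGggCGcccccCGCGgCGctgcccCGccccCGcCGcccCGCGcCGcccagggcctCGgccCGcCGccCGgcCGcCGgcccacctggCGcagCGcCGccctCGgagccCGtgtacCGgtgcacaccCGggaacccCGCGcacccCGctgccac
The Wnt3 window holds 22 CG dinucleotides and the Wnt3a window 41, where the median promoter window of the same length holds 6, and 85.2% and 98.9% of the 32851 windows hold fewer. The Tcf/Lef core (CTTTGA or CTTTGT, both strands) occurs in neither window and in 27.6% of all windows, and the homeodomain core TAAT (both strands) occurs in neither and in 54.9% of all windows. Promoter windows were matched for 5 of the 8 genes by symbol, and among the others the Wnt6 window had 28 CG dinucleotides and neither motif. Of the 3 Wnt5b windows 1 held a Tcf/Lef core and 2 held TAAT, and of the 2 Wnt11 windows 1 held a Tcf/Lef core and the other TAAT. A match is a string of letters and not a measured site. Wnt5a lies on chromosome 14, Wnt5b on 6, Wnt6 on 1, Wnt11 on 7 and Porcn on X.

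Which ligands the cultures expressed above background was asked first. Of the 15 probes, 12 passed the filter, a detection p under 0.01 on at least 4 of the 16 arrays, and 7 of the 8 genes had at least 1 such probe. Wnt5a and Porcn were each above background on all 16 arrays with their brightest probe. Wnt11, a ligand of the streak and early mesoderm, was above background on none of the 16 arrays, with a lowest detection p of 0.0491 and deposited intensities of 169.8 to 256.6 in null cultures and 179.2 to 364.0 in wild-type cultures. No fold change is therefore given for Wnt11, and a low level cannot be told from an insensitive probe.

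**Figure D1:**
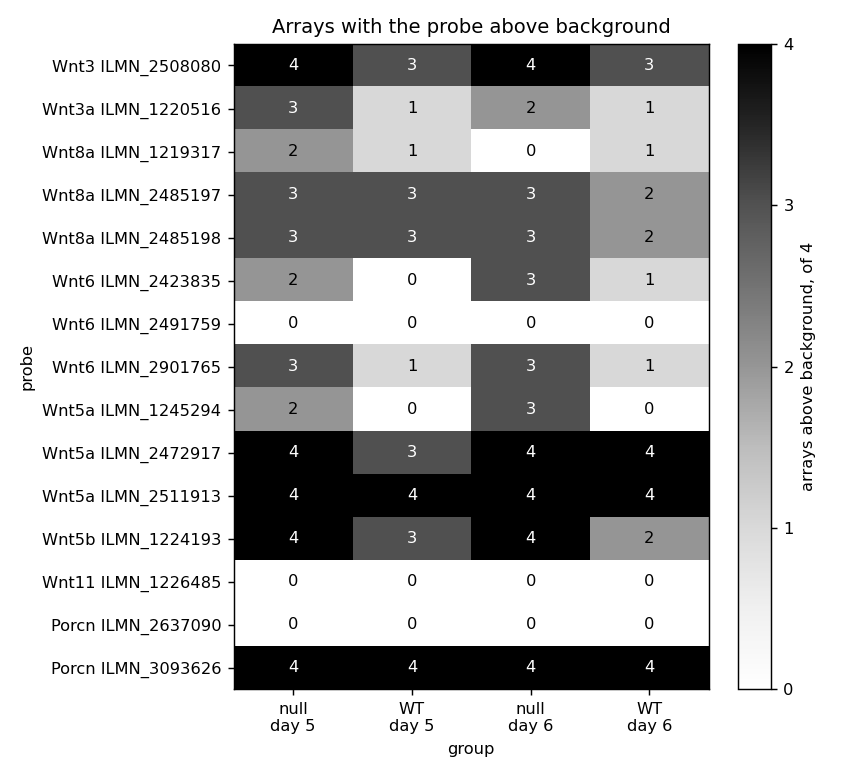
Number of arrays, of 4 per group, on which each of the 15 probes was above background (detection p under 0.01), with probes down the page and groups across. Wnt5a probe ILMN_2511913 and Porcn probe ILMN_3093626 were above background on 4 of 4 arrays in every group, and the Wnt11 probe on 0 of 4.

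With a detection p under 0.01, each canonical ligand was read in part of the cultures only. Wnt3 was above background on 4 of 4 null and 3 of 4 wild-type arrays at day 5 and on 4 of 4 null and 3 of 4 wild-type arrays at day 6. Wnt3a was above background on 3 null and 1 wild-type array at day 5 and on 2 null and 1 wild-type array at day 6. Wnt8a, with its brightest probe, was above background on 3 null and 3 wild-type arrays at day 5 and on 3 null and 2 wild-type arrays at day 6, and Wnt6 on 3 null and 1 wild-type array at each day. Among non-canonical ligands, Wnt5b was above background on all 8 null arrays and on 3 wild-type arrays at day 5 and 2 at day 6. With a detection p under 0.05 in place of 0.01, Wnt3 was read on all 16 arrays, Wnt8a on 14, Wnt6 on 11, Wnt5b on 15, Wnt3a on the same number as before, 7, and Wnt11 on 1.

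The question of whether loss of Lhx1 changed the expression of any of these genes was put to a limma model over all 10939 genes, each represented by its brightest probe. At a threshold of 0.05 on the Benjamini-Hochberg adjusted p, limma called none of the 7 measured genes at either day. Over all genes 0.558% were called at day 5, of which 7 genes (0.064%) were higher and 54 (0.494%) lower in null cultures, and 1.57% at day 6, of which 63 (0.576%) were higher and 109 (0.996%) lower, so 0 of 7 is close to such shares. In the fit over single probes 0.41% were called at day 5 and 1.24% at day 6, again with none of the 12 probes of the members among them. At an unadjusted p under 0.05, 2 of the 7 genes passed at day 5, Wnt5a and Wnt5b, and the same 2 at day 6, where 11.9% and 13.9% of all genes did. The 6 ligands above the filter, of 7, had higher means in null than in wild-type cultures throughout, by 0.85 to 1.86 on the log2 scale at day 5 and by 0.28 to 1.45 at day 6, where 52% and 50.6% of all genes had positive fold changes (38.7% at both days). A log2 fold change over 1 was found for 5 of the 6 at day 5 and 3 at day 6, beside 2.58% and 3.04% of all genes. The median over the 6 was 1.23 at day 5 and 1.07 at day 6, beside 0.01 and 0.00 over all genes, and it was 1.21 and 0.91 for the 4 canonical ligands and 1.33 and 1.34 for Wnt5a and Wnt5b. These counts are descriptions, because the ligands vary together over the same cultures and because Wnt3a and Wnt6 passed the filter mostly through null arrays. The ligands also varied more between cultures of a group than most genes, with pooled SDs of 0.81 to 1.80 beside 0.36 for the median gene. Group means of such genes differ by more than 1 more readily, so the shares of all genes are not a like comparison. In these bulk samples more expressing cells and more RNA per cell cannot be told apart.

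**Figure D2:**
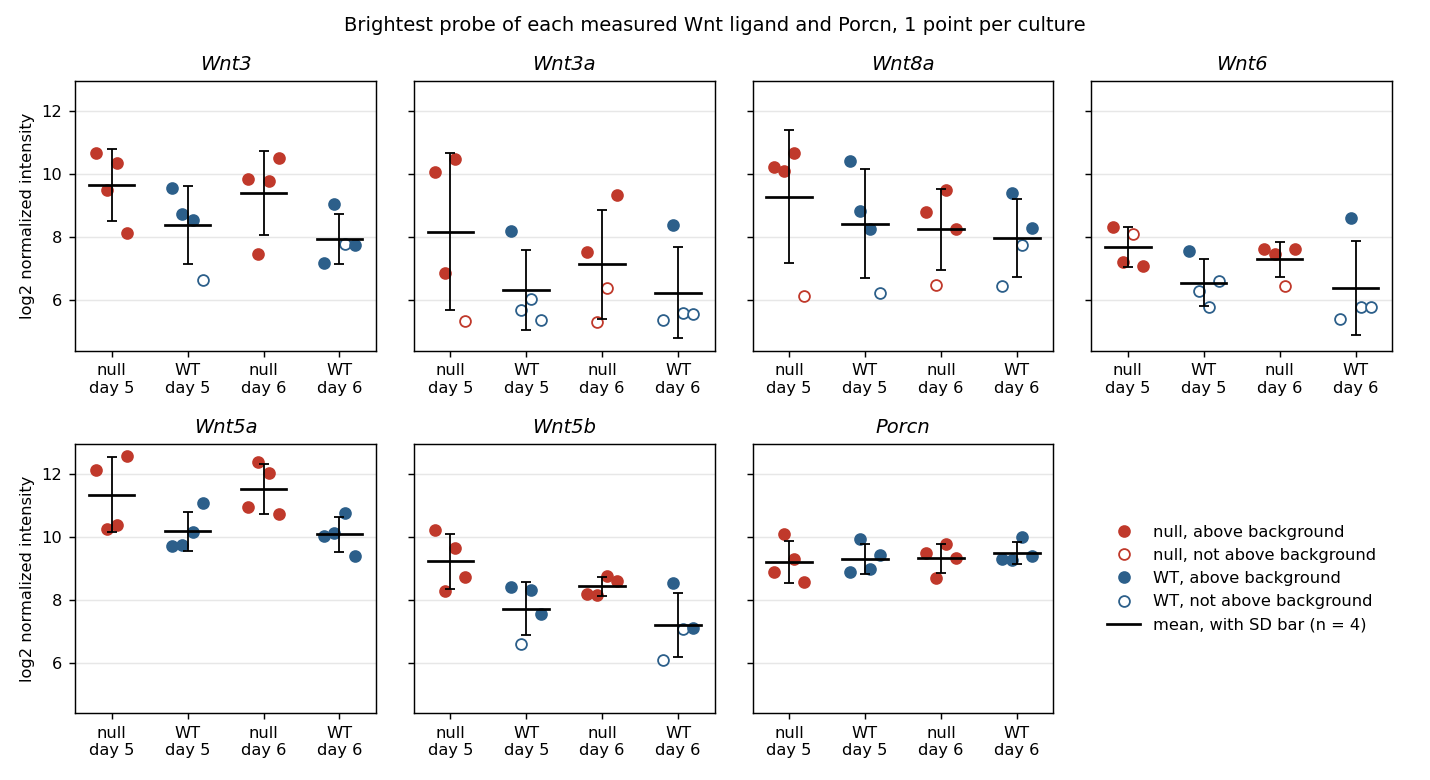
Log2 normalized intensity of the brightest probe of 7 genes in each culture, by genotype and day, with filled points above background, open points not above background, and bars for the mean and SD of 4 cultures. Means of the 6 ligands lie higher in null than in wild-type cultures at both days, those of Porcn differ by -0.09 and -0.17, and points of null and wild-type cultures overlap in every panel.

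Wnt3, the ligand that initiates the primitive streak, had log2 intensities of 10.67, 9.51, 10.37 and 8.12 in null cultures and 9.57, 8.75, 8.56 and 6.63 in wild-type cultures at day 5, for replicates 1 to 4. The groups overlapped, with null replicate 4 below wild-type replicates 1 to 3 and null replicate 2 below wild-type replicate 1. Replicate 4 was the lowest culture of both genotypes. At day 6 Wnt3 was 9.84, 7.45, 9.79 and 10.51 in null cultures and 7.19, 9.06, 7.79 and 7.77 in wild-type cultures. Of the null cultures 3 lay above every wild-type culture and null replicate 2 lay below 3 of them. The log2 fold change of null over wild-type was 1.29 ± 0.74 (SE) at day 5, with a 95% interval of -0.30 to 2.88 and a limma adjusted p of 0.532, and 1.45 ± 0.74 at day 6, with an interval of -0.15 to 3.04 and an adjusted p of 0.417. Both intervals include 0. At day 5 each null culture was above the wild-type culture of the same number, and at day 6 null replicate 2 was not. With the numbers as a block within each day the adjusted p was 0.373 at day 5 and 0.3015 at day 6 (limma). No label states that the numbers pair cultures.

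Wnt3a, which sustains mesoderm formation after the streak has formed, had the widest spread between cultures of the 7 measured genes. Its log2 intensities were 10.07, 6.85, 10.48 and 5.32 in null cultures and 8.20, 5.67, 6.04 and 5.38 in wild-type cultures at day 5. At day 6 they were 7.53, 5.30, 6.39 and 9.35 in null cultures and 5.38, 8.40, 5.59 and 5.55 in wild-type cultures. Wild-type cultures were thus high in Wnt3a in a single replicate of each day, and the lowest null cultures were replicate 4 at day 5 and replicate 2 at day 6, neither above background. For Wnt3a the log2 fold change was 1.86 ± 1.17 (SE) at day 5 (adjusted p = 0.579, limma) and 0.91 ± 1.17 at day 6 (adjusted p = 0.837, limma). The SD between cultures of a group, pooled over groups, was 1.80, larger than that of 99.8% of genes, where the median gene had 0.36.

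Wnt8a, another ligand of the early streak, was 10.25, 10.09, 10.66 and 6.15 in null cultures and 10.44, 8.83, 8.25 and 6.22 in wild-type cultures at day 5. At day 6 it was 8.79, 6.48, 9.49 and 8.27 in null cultures and 6.43, 9.40, 7.77 and 8.30 in wild-type cultures. Both genotypes held at least 1 culture not above background at each day. Null over wild-type, its log2 fold change was 0.85 ± 1.06 (SE) at day 5 (adjusted p = 0.822, limma) and 0.28 ± 1.06 at day 6 (adjusted p = 0.964, limma), and its pooled SD of 1.63 exceeded that of 99.5% of genes. The 3 Wnt8a probes correlated at 0.91 to 0.98 over the 16 arrays, and ILMN_1219317, above background on the fewest arrays, was below background on all 4 null arrays of day 6 and has no fold change for that day.

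Wnt6 was dim throughout. With its brightest probe it was 8.33, 7.20, 8.11 and 7.08 in null cultures and 7.56, 6.30, 5.77 and 6.60 in wild-type cultures at day 5, and 7.64, 7.47, 6.45 and 7.62 in null cultures and 5.39, 8.61, 5.78 and 5.78 in wild-type cultures at day 6. Wild-type day 6 replicate 2 was the highest of all 16 arrays. The other 3 wild-type cultures of that day and null day 6 replicate 3 were not above background, and no order is read among them. Null exceeded wild-type on average by a log2 fold change of 1.12 ± 0.61 (SE) at day 5 (adjusted p = 0.507, limma) and 0.90 ± 0.61 at day 6 (adjusted p = 0.577, limma). The second kept Wnt6 probe, ILMN_2423835, was below background on all 4 wild-type arrays of day 5 and above it on 2 of 4 null arrays, a difference of at least 1.08-fold (adjusted p = 0.237, limma over 15593 probes). Such bounds set the mean of the brighter group against, for each array of the dimmer group, the lowest signal among probes above background or the probe's own signal, whichever is higher. The third Wnt6 probe was above background on no array.

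Among the non-canonical ligands, Wnt5a was read by 3 probes. On the brightest, ILMN_2511913, it was 12.14, 10.27, 10.40 and 12.58 in null cultures and 9.73, 9.76, 10.16 and 11.08 in wild-type cultures at day 5. At day 6 it was 10.97, 12.40, 12.02 and 10.73 in null cultures and 10.03, 10.12, 10.77 and 9.41 in wild-type cultures. The overlap was a single culture at each day, wild-type replicate 4 at day 5 above 2 nulls and wild-type replicate 3 at day 6 above null replicate 4. The log2 fold change was 1.16 ± 0.54 (SE) at day 5, with a 95% interval of 0.00 to 2.32 and an adjusted p of 0.420 (limma), and 1.45 ± 0.54 at day 6, with an interval of 0.29 to 2.61 and an adjusted p of 0.219 (limma).

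On Wnt5a probe ILMN_2472917, null and wild-type cultures did not overlap. It was 10.43, 8.28, 8.68 and 10.22 in null cultures and 7.42, 7.93, 7.45 and 7.91 in wild-type cultures at day 5, and 9.13, 10.24, 9.80 and 8.81 in null cultures and 8.14, 7.64, 8.10 and 7.46 in wild-type cultures at day 6. Each null culture thus lay above each wild-type culture of its day, which held for 2.05% of all 15593 probes at day 5, for 3.48% at day 6 and for 0.539% at both days. The log2 fold change was 1.73 ± 0.44 (SE) at day 5 and 1.66 ± 0.44 at day 6, and it missed the threshold at both days (limma over all probes, adjusted p = 0.0960 for day 5 and 0.0824 for day 6). Probe ILMN_1245294 was below background on all 8 wild-type arrays and above it on 2 null arrays at day 5 and 3 at day 6, so it passed the filter through null arrays alone. Null day 5 replicates 2 and 3 and null day 6 replicate 1 were not above background either, and no order is read from such signals. The difference of means was at least 1.12-fold at day 5 and at least 1.13-fold at day 6 (limma over all probes, adjusted p = 0.137 for the earlier day and 0.150 for the later). The 3 probes correlated at 0.89 to 0.94 over the 16 arrays, and no Wnt5a probe was called.

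**Figure D3:**
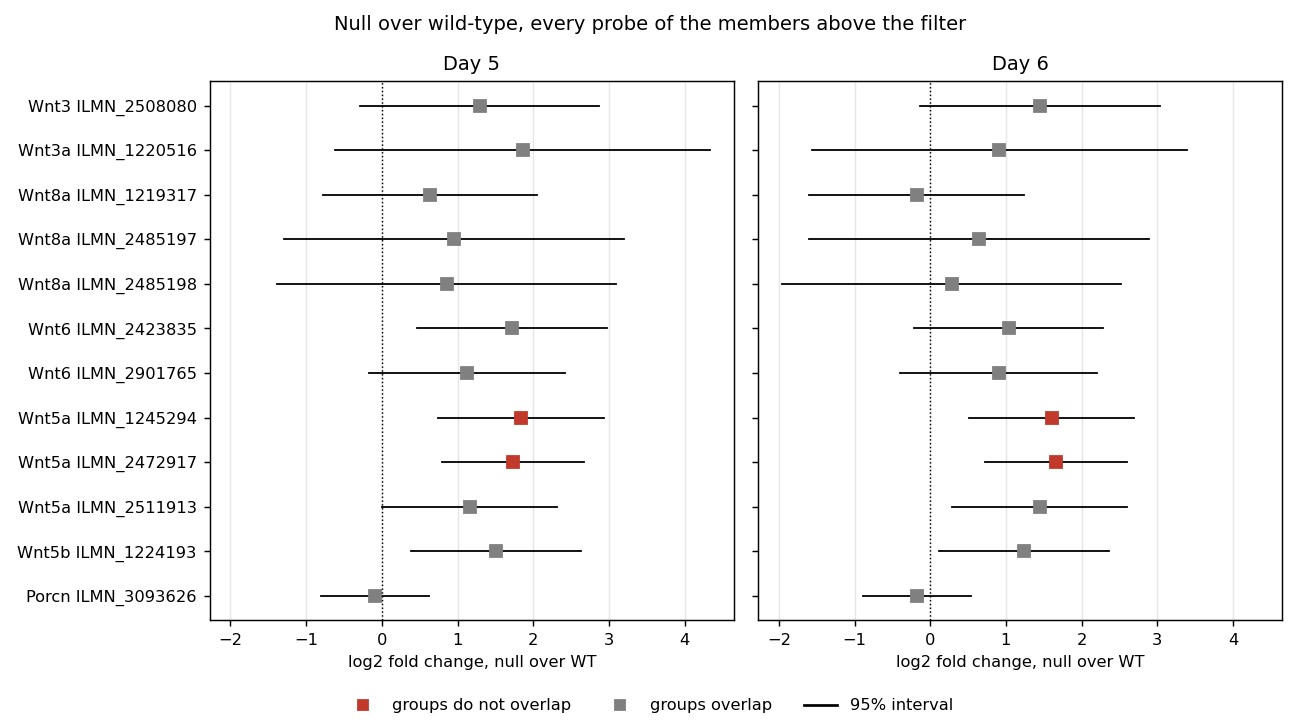
Log2 fold change of null over wild-type cultures at day 5 (left) and day 6 (right) for each of the 12 probes above the filter, with 95% intervals from the limma fit over 15593 probes. Red squares mark the 2 Wnt5a probes whose plotted values do not overlap at either day. For ILMN_1245294 that order is not read, because every wild-type array and some null arrays were below background. The squares of Wnt5a ILMN_1245294 at both days, of Wnt6 ILMN_2423835 at day 5 and of Wnt8a ILMN_1219317 at day 6 are not measured folds. At each of them all 4 arrays of 1 genotype were below background. The Porcn probe sits at -0.09 and -0.17.

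Wnt5b, a close relative of Wnt5a, was 10.23, 8.28, 9.65 and 8.74 in null cultures and 8.41, 6.59, 8.31 and 7.57 in wild-type cultures at day 5. At day 6 it was 8.19, 8.17, 8.78 and 8.61 in null cultures and 6.10, 8.55, 7.06 and 7.09 in wild-type cultures. At day 5 null replicate 2 fell below 2 wild-type cultures, although each null culture was above the wild-type culture of the same number, and at day 6 wild-type replicate 2 was the only wild-type culture within the null range. The log2 fold change was 1.51 ± 0.53 (SE) at day 5, with a 95% interval of 0.38 to 2.63 and an adjusted p of 0.250 (limma), and 1.23 ± 0.53 at day 6, with an interval of 0.11 to 2.36 and an adjusted p of 0.2997 (limma). At day 6 null replicate 2 lay below the wild-type culture of its number. With the numbers as a block within each day the adjusted p was 0.111 at day 5 and 0.1335 at day 6 (limma), and the numbers are not labelled as pairs.

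Porcn, the acyltransferase that all the ligands depend on for secretion, lies on the X chromosome and had the smallest spread between cultures of the 7 measured genes (pooled SD 0.50). Its detected probe gave 8.90, 10.09, 9.30 and 8.56 in null cultures and 8.88, 9.94, 8.99 and 9.42 in wild-type cultures at day 5. At day 6 it gave 9.50, 8.68, 9.77 and 9.34 in null cultures and 9.31, 9.27, 9.99 and 9.40 in wild-type cultures. The groups overlapped at both days, and the log2 fold change was -0.09 ± 0.33 (SE) at day 5, with a 95% interval of -0.81 to 0.62 and an adjusted p of 0.947 (limma), and -0.17 ± 0.33 at day 6, with an interval of -0.89 to 0.54 and an adjusted p of 0.913 (limma). As a fold of null over wild-type, these intervals run from 0.571 to 1.54 and from 0.541 to 1.46. The second Porcn probe was above background on no array, and with Eif2s3y as a covariate Porcn was still not called.

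Levels were also compared between days within a genotype, with the cultures of each day taken as independent. For Wnt3, Wnt3a, Wnt5b and Wnt6 the order of group means was null day 5 highest, then null day 6, wild-type day 5 and wild-type day 6. For Wnt5a it was null day 6 (11.53), null day 5 (11.35), wild-type day 5 (10.18) and wild-type day 6 (10.08). For Wnt8a the order ran null day 5 (9.29), wild-type day 5 (8.43), null day 6 (8.26) and wild-type day 6 (7.97). Porcn ran wild-type day 6 (9.49), null day 6 (9.32), wild-type day 5 (9.31) and null day 5 (9.21). Neighbors in these orders lay closer together than the pooled SD between cultures, except null and wild-type day 5 for Wnt5a, 1.16 apart beside an SD of 0.83. From day 5 to day 6 the log2 change was largest in size for Wnt3a in null cultures, at -1.04 ± 1.17 (SE, adjusted p = 0.9996, limma), and no member was called in either genotype, nor was any of the 10939 genes (0%), while 4.07% of genes in null and 1.22% in wild-type cultures passed an unadjusted p under 0.05. The difference of the null effect between days was likewise called for no member and no gene, with 0.969% of genes at an unadjusted p under 0.05, and the largest value among members was -0.95 ± 1.65 (SE) for Wnt3a.

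Differences between cultures of the same group were large for Wnt3, Wnt3a and Wnt8a and ran in parallel. Over the 16 arrays Wnt3 correlated with Wnt3a at r = 0.86 (Spearman 0.90) and with Wnt8a at r = 0.82 (Spearman 0.76), and after each group's mean was taken out the values were 0.84 and 0.89. Without the 2 arrays farthest from the Wnt3 median the values were 0.84 and 0.76. Wnt5b also went with Wnt3 (r = 0.72, and 0.55 within groups). Wnt6, placed with the canonical ligands, had 0.64 with Wnt3 (0.48 within groups) and 0.49 with Wnt8a (0.44 within groups). It was not among the lowest in null day 5 replicate 4 (7.08) or null day 6 replicate 2 (7.47). These are descriptions over 16 arrays that share normalization and, possibly, cell lines. The lowest Wnt8a signals at day 5 were those of replicate 4 in both genotypes. At day 6 they were those of null replicate 2 and wild-type replicate 1. Neither Wnt8a nor Wnt3a was above background on these 4 arrays. Wnt3a was above background on 7 arrays only, so no order is read among its low signals. For Wnt3, 3 of the 4 arrays were the lowest.

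**Figure D4:**
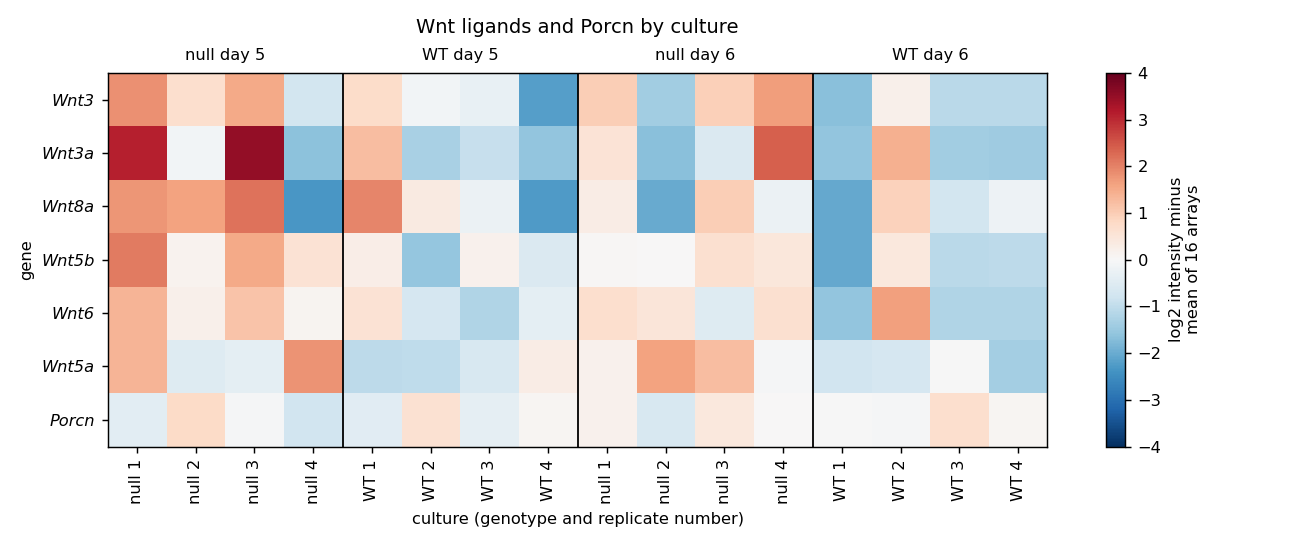
Log2 intensity of each gene in each of the 16 cultures minus the gene's mean over all arrays, on a color scale from -4 to 4, with groups separated by lines. Null day 5 replicate 4 and null day 6 replicate 2 are blue for Wnt3, Wnt3a and Wnt8a and red for Wnt5a.

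Wnt5a did not follow Wnt3, Wnt3a or Wnt8a. Its correlation with Wnt3 over the arrays was 0.04, and within groups it was -0.56 with Wnt3 and -0.60 with Wnt8a. For Wnt5a the highest of the 16 arrays was null day 5 replicate 4 (12.58), followed by null day 6 replicate 2 (12.40). Neither culture was above background for Wnt3a (5.32 and 5.30) or Wnt8a (6.15 and 6.48). Without the 2 arrays farthest from the Wnt5a median its correlation with Wnt8a was 0.09 in place of -0.31, so over all arrays the opposite course rests on those cultures. Wnt5a correlated with Lhx1 at r = -0.78 (Spearman -0.80, and -0.67 within groups) and with Bmp4 at 0.78, and the same 2 cultures were the lowest in Lhx1. Primitive streak markers (5 of 8 measured) moved with Wnt3, Wnt3a and Wnt8a. Their mean was 8.84 in null day 5 replicate 4 and 8.94 in null day 6 replicate 2. The other null cultures had 11.27 to 12.17 and wild-type cultures 8.995 to 11.31. Lateral plate and extraembryonic mesoderm markers (7 of 10 measured) had their highest means in the same pair, at 11.05 and 10.95, by a small margin. Null day 5 replicate 1 had 10.79, the other null day 6 cultures 10.51 to 10.69, and the remaining null day 5 cultures 9.15 and 8.81. Wild-type cultures had 8.03 to 8.68. With the marker signals summed in place of averaged, null day 5 replicate 1 was highest (log2 14.93, beside 14.79 and 14.66 in the pair). The part of either cell population in the ligand values was not tested.

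The genes closest to each member over the 16 arrays were taken as the 3 with the highest correlation. For Wnt3 they were Dennd2c, St6galnac4 and Shmt2 (0.93 to 0.95), and Mixl1, a homeobox gene of the streak, had 0.93. For Wnt3a they were Isg15, Hoxb1 and Psmb10 (0.92 each), and for Wnt8a they were Ppp4r4, Fst and Nanog (0.92 to 0.96). For Wnt5a they were the netrin receptor Unc5c, the semaphorin receptor Plxnd1 and Frmd6 (0.92 to 0.94). For Wnt5b they were Cdca3, Nkd1 and Fzd10 (0.90 to 0.91), of which Nkd1 is a target and inhibitor of Wnt signaling and Fzd10 a Wnt receptor. Wnt6 was closest to Pomt1, Dnd1 and Tymp (0.88 to 0.90) and Porcn to Klf9, Ifi30 and Cds1 (0.86 to 0.88).

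Other ligands were mostly below background. Of 12 further Wnt genes on the array, 2 passed the filter, Wnt2 and Wnt4, and 7 were above background on no array. Wnt4 was 8.69, 8.22, 7.99 and 7.66 in null cultures and 6.41, 6.80, 6.64 and 6.001 in wild-type cultures at day 6, where it was below background on all 4 wild-type arrays, and the difference of at least 1.92-fold was not called (adjusted p = 0.217, limma). At day 5 its groups overlapped, with a log2 fold change of 0.79 ± 0.63 (SE). Wnt2 had a log2 fold change of 0.98 ± 0.80 (SE) at day 5 and 1.60 ± 0.80 at day 6 (adjusted p = 0.400, limma).

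Genes of Wnt export and inactivation showed no call in either direction at either day, among 9 measured of 11 listed. Wls, the carrier of lipid-modified Wnt proteins, was 11.76, 11.80, 11.73 and 11.501 in null cultures and 10.79, 10.66, 11.26 and 10.87 in wild-type cultures at day 6. Each null culture was above each wild-type culture, as for 3.46% of all genes, and the log2 fold change was 0.80 ± 0.28 (SE, adjusted p = 0.180, limma), beside 0.16 ± 0.28 at day 5. All 5 Wls probes had positive fold changes at day 6, from 0.66 to 1.51, and 3 of them had groups that did not overlap. Wls correlated with Wnt5a at 0.74 over the arrays (0.71 within groups) and with Wnt3 at 0.13.

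Notum, a secreted enzyme that strips the lipid from Wnt proteins, was 7.40, 8.78, 7.08 and 8.39 in null cultures and 6.65, 5.88, 6.62 and 5.92 in wild-type cultures at day 5. At day 6 it was 6.57, 6.81, 7.53 and 7.82 in null cultures and 5.75, 5.91, 5.79 and 5.71 in wild-type cultures. It was above background on 3 null arrays at day 5 and 2 at day 6 and on no wild-type array, so it passed the filter through null arrays alone. Null day 5 replicate 3 and null day 6 replicates 1 and 3 were not above background either. The difference was at least 1.39-fold at day 5, and neither day reached the threshold (adjusted p = 0.0554 and 0.0725, limma). At day 6 no minimum fold can be given, because the null mean of 7.18 lay below the wild-type floor of 7.20. The retromer subunits Vps26a, Vps29 and Vps35, which recycle Wls, had log2 fold changes of -0.14 to 0.57 over both days and were not called.

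Receptors and targets stood differently. Of 9 measured Frizzled and Lrp receptors, Fzd5 and Fzd8 fell in null cultures at both days, beside 0.494% of all genes called lower at day 5 and 0.996% at day 6, and none was called higher. Fzd10 had log2 fold changes of 1.25 ± 0.46 (SE) at day 5 and 1.19 ± 0.46 at day 6 (limma, adjusted p = 0.277 for day 5 and 0.241 for day 6). Fzd5 averaged 10.05 in null and 14.04 in wild-type cultures at day 5 (log2 fold change -3.99 ± 0.70 SE, adjusted p = 0.0243, limma) and 10.96 in null and 14.32 in wild-type cultures at day 6 (-3.37 ± 0.70, adjusted p = 0.0281, limma). Fzd8 had log2 fold changes of -2.99 ± 0.49 (SE) at day 5 and -2.86 ± 0.49 at day 6 (limma, adjusted p = 0.0154 for the earlier day and 0.0128 for the later), and at day 5, where it was below background on all 4 null arrays, it was at least 3.76-fold lower. Of 10 measured receptors and polarity genes of the non-canonical branch none was called in either direction. The Wnt5a receptors Ror2 and Ryk had values of -0.59 and 0.06 at day 6, and Ror1 had -1.06. At an unadjusted p under 0.05 (limma) 5 of the 10 passed at day 6 and 1 at day 5, beside 13.9% and 11.9% of all genes. Those of day 6 were Ror1, Celsr2 (-1.06) and Celsr3 (-1.02), lower in null cultures, and Daam1 (0.68) and Ptk7 (0.38), higher. Of 10 measured canonical targets, Apcdd1, a membrane inhibitor of Wnt signaling, rose at day 6 (log2 fold change 3.505 ± 0.66 SE, adjusted p = 0.0160, limma), beside 0.576% of all genes called higher, and no other was called at either day. With Eif2s3y as a covariate the calls of Fzd5 (adjusted p = 0.0921 at day 5 and 0.0777 at day 6, limma), of Fzd8 at day 5 (0.0784) and of Apcdd1 (0.0641) were lost, and Fzd8 at day 6 was still called. Axin2, the feedback inhibitor most used as a readout of beta-catenin activity, had log2 fold changes of 1.62 ± 0.61 (SE) and 1.92 ± 0.61 at day 5 and day 6 (adjusted p = 0.280 and 0.137, limma), and correlated with Wnt3 at 0.88 and with Wnt5b at 0.85 over the arrays. Of the 10 targets 9 had positive fold changes at day 5 and 8 at day 6, where 52% and 50.6% of all genes did. Sp5 had 0.45 ± 1.10 (SE) and 0.76 ± 1.10. Lgr5 went the other way at both days (-1.21 and -0.60), as did Nkd2 at day 6 (-0.19). Beta-catenin activity was not tested. The 1 measured R-spondin, Rspo3, had log2 fold changes of 0.71 ± 0.56 (SE) and 1.24 ± 0.56 and was not called.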

How the data were processed

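RNA of 4 Lhx1-null and 4 wild-type cultures at each of day 5 and day 6 was measured on 16 arrays. The authors deposited probe intensities without normalization, with a detection p-value per probe and array from GenomeStudio (version not given in the sources used here), and a second table of intensities after rank invariant normalization, used here as an alternative. Here the table without normalization was corrected with limma 3.58.1 in R 4.3.3 by neqc, which infers the background from the detection p-values and adds an offset of 16, quantile-normalized and taken to log2. Low signals are therefore compressed toward background, and a fold change of a dim probe is understated. The filter required detection at p under 0.01 by 4 arrays or more and left 15593 of 45281 probes, and each symbol took its brightest kept probe, which left 10939 genes (probes without a symbol stood for themselves). Of all probes, 34885 carried 1 symbol and 10396 none or several.

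A limma model of the 4 group means gave each comparison, with Benjamini-Hochberg adjustment over all genes or, for single probes, all probes, and was tested on simulated data. All members were named. From each pathway list up to 4 called genes, and for each member its 3 most correlated genes, were named. Others were added after their values were seen: Wnt2, Wnt4, Wls, Notum, Axin2, Sp5, Lgr5, Nkd2, Rspo3, the retromer subunits, Ror1, Ror2, Ryk, Celsr2, Celsr3, Daam1, Ptk7, Mixl1 and Bmp4. The members and lists were chosen with earlier results of these data known. Null day 6 replicates 3 and 4 are both described as replicate 2 in the labels, and the titles were used. Same-numbered null and wild-type cultures deviated together from their group means in all 4 pairs at day 5 (correlations of 0.14 to 0.36). At day 6 the correlations were -0.044 to 0.44. Only 2 of the 4 null cultures at day 5, and 1 at day 6, correlated best with the wild-type culture of their own number. No label states a pairing, so comparisons by number rest on an assumption and the block within each day is an alternative only. The paper describes RNA from 4 independent Lhx1-null lines and from wild-type control lines, taken at each day. Which cell line a culture came from is not labelled, so p-values measure the spread between these cultures. The fit took all arrays as independent and compared the days without pairing. If lines were shared between days, it did not account for that. The number of arrays and the signal over background limit the precision.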

Additional observations from a re-analysis of the deposited data

Results flagged for a closer look

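Among the 12 probes of the members above the filter and the 4 groups, 48 sets of 4 cultures, 8 held a culture far from the other 3 by Dixon's test at the 95% level, which chance alone gives in about 1 set in 20, and probes of the same gene repeat each other. Wnt8a in null day 5 replicate 4 was low on all 3 of its probes, at 6.15 on ILMN_2485198, 6.501 on ILMN_2485197 and 5.43 on ILMN_1219317, where the other 3 null cultures were at least 8.06. In wild-type day 6 replicate 2, Wnt3a was high at 8.40 where the next culture had 5.59, and Wnt6 was high on both kept probes, at 8.61 on ILMN_2901765 and 8.14 on ILMN_2423835, where the next cultures had 5.78 and 5.71. In null day 6 replicate 3, Wnt6 was low on the same probes, at 6.45 on ILMN_2901765 and 6.34 on ILMN_2423835, where the next cultures had 7.47 and 7.38. The low values of Wnt8a and Wnt6 were not above background. Neither were Wnt3a and Wnt6 in the other 3 wild-type cultures of day 6. The flags thus mostly set signals above background against signals that were not, and the sizes of the gaps are not read.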

How the results depend on the processing

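With each of 13 alternatives and with each of the 16 cultures left out in turn, no member was called at day 5, and at day 6 the only call was 1 member, Wnt3 with array weights (log2 fold change 1.97, limma adjusted p = 0.0309), a setting that raised the genes called to 1153. The genes called at day 5, 61, were 21 with no filter on dim probes, 16 with only the arrays of that day, 14 with a replicate block and 6 with Eif2s3y as a covariate, and 11 to 178 with single cultures left out (11 without wild-type day 5 replicate 2, 178 without wild-type day 5 replicate 1). The 172 of day 6 were 82 with no filter, 90 with a replicate block, 5 without the 2 cultures of conflicting labels and 53 with Eif2s3y, and 33 to 337 with single cultures left out (33 without wild-type day 6 replicate 4, 337 without wild-type day 6 replicate 2). The cause was not tested. The replicate block within each day, chosen after seeing the data, gave 72 genes at day 5 and 170 at day 6. Whether the numbers pair null and wild-type cultures is not labelled. That block changed the call of no gene or probe refitted under the alternatives.

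Wnt8a at day 6 turned to -0.34 without the cultures of conflicting labels and ran from -0.23 (without wild-type replicate 1) to 0.87 (without null replicate 2). Porcn turned to 0.12 at day 5 and 0.042 at day 6 without both null cultures that stood apart, with ranges of -0.39 to 0.12 and -0.32 to 0.042 over single cultures, and Wls at day 5 ran from -0.15 (without null replicate 1) to 0.36. Wnt5a probe ILMN_2472917 passed the threshold at day 6 with array weights (adjusted p = 0.0214, limma) and at day 5 without null replicate 2 (2.10, adjusted p = 0.0459, limma). Notum passed at day 5 without wild-type replicate 1 (adjusted p = 0.0416, limma) or null replicate 3 (0.0266), and with array weights at day 6 so did Notum, Wls and Wnt4, the last also with only the arrays of that day (adjusted p = 0.0258, limma). For Notum at both days and Wnt4 at day 6 no wild-type array was above background. Those p-values therefore set null signals against background. The calls of Fzd5 and Fzd8 at day 5 were lost with only the arrays of that day, with a replicate block and without wild-type day 5 replicate 2, 3 or 4 or null day 5 replicate 1, and that of Fzd5 without null day 5 replicate 4 or with no filter. At day 6 Fzd5, Fzd8 and Apcdd1 were lost without the cultures of conflicting labels or without wild-type replicate 4, Fzd5 and Apcdd1 with a replicate block, without wild-type replicate 1 or without null replicate 3, and Fzd5 with no filter and without wild-type replicate 3 or null replicate 2 or 4. Apcdd1 at day 5 passed without null replicate 2 (adjusted p = 0.0417, limma), Rspo3 at day 6 without wild-type replicate 2 (0.0386) and Axin2 at day 6 with array weights (0.00733). The signal over background limits Wnt3a, Wnt6 and Notum, which most wild-type arrays did not detect.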
